A study of Mus musculus with 10 samples.

Results

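The Eph receptors and ephrins described here are 10 genes, *Epha2*, *Epha3*, *Epha4*, *Epha7*, *Ephb1*, *Ephb2*, *Ephb3*, *Ephb4*, *Efna1* and *Efnb2*, found by symbol among the 54532 genes of the expression table. They comprise 8 receptors and 2 ligands, out of a family of 22 genes. They were chosen by their FPKM with earlier results in view, because *Epha2* and *Epha4* had differed in opposite directions between treated and control hearts. The differences between the groups are therefore given for these 10 genes as a description, and nothing is read from a test of them. The hearts came from 10 *Rit1* M90I/+ mice, a model of Noonan syndrome in which a Cre deleter driven by the cytomegalovirus promoter had switched on the pathogenic variant in the germline. The vehicle group (n = 5) received the carrier alone, and the MEKi group (n = 5) received trametinib, an allosteric inhibitor of MEK1 and MEK2, at 1 mg/kg once daily. Dosing began when the mice were 4 weeks old and lasted 20 weeks, and the mice were killed 2 hours after the last dose. Every mouse in both groups carried the M90I allele, so the comparison is between treated and untreated mutant hearts.

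Eph receptors form the largest family of receptor tyrosine kinases, and their ligands, the ephrins, are themselves bound to the membrane, so that signals pass between touching cells and can run in both directions. EphA receptors mainly bind the lipid-anchored A-type ephrins and EphB receptors mainly bind the transmembrane B-type ephrins, with EphA4 also binding B-type ligands. In the vasculature, ephrin-B2 marks arterial and EphB4 venous endothelium, and the pair is needed for vessels to form. *Epha2* and *Epha4* are also used, with other transcripts, to read the output of the MAPK pathway that trametinib blocks.

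Messenger RNA was sequenced from each heart, and between 13647167 and 18474002 fragments were assigned to genes per heart. Expression is in FPKM, fragments scaled to gene length and library size. Levels of different genes can be set side by side on this scale, apart from errors particular to a gene. Cardiomyocyte markers were abundant in all hearts, with 8 of 8 above 0 and a summed level of 15199 to 21045 FPKM. The hearts also differed in ways that touch the results. *Xist* had 8694 fragments in the 5 MEKi hearts and 2 in the 5 vehicle hearts, and 4 of 4 Y-linked transcripts were listed at 0 in the MEKi group and present in the vehicle group. These transcripts mark the sex of a mouse, which the labels do not give, and the study's methods include both sexes. Treatment and these transcripts divided the hearts alike, so the parts of treatment and sex in any difference below cannot be told apart. Summed levels of 7 atrial markers were high in vehicle hearts 4 and 5 (2196 and 842.3 FPKM) and MEKi heart 2 (1136 FPKM), and from 142.6 to 473.1 FPKM in the others. Mitochondrially encoded genes took 24.7 to 35.0% of the fragments in vehicle hearts, most in vehicle heart 3, and 24.0 to 28.7% in MEKi hearts. The effect of this share on the levels below was not tested. Which part of the heart was taken is not given in the sources used here. In whole tissue, fewer cells of a type and less RNA per cell cannot be told apart.

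*Efna1* and *Ephb4* were the most abundant of the 10 genes, and *Ephb2* and *Epha3* were close to absent. Over the 10 hearts, *Efna1* averaged 21.8 FPKM and *Ephb4* 15.7 FPKM. *Efnb2* followed at 3.52 FPKM, *Epha4* at 3.44 FPKM, *Ephb3* at 1.68 FPKM and *Epha2* at 1.46 FPKM. Below these lay *Ephb1* at 0.583 FPKM, *Epha7* at 0.375 FPKM, *Ephb2* at 0.0355 FPKM and *Epha3* at 0.0203 FPKM. Together *Efna1* and *Ephb4* made up between 46.8 and 57.6% of the summed FPKM of all 22 family genes in a heart, and the 10 genes between 62.2 and 75.8%. *Ephb4* alone gave between 59.6 and 68.6% of the summed receptor level.

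**Figure D1:**
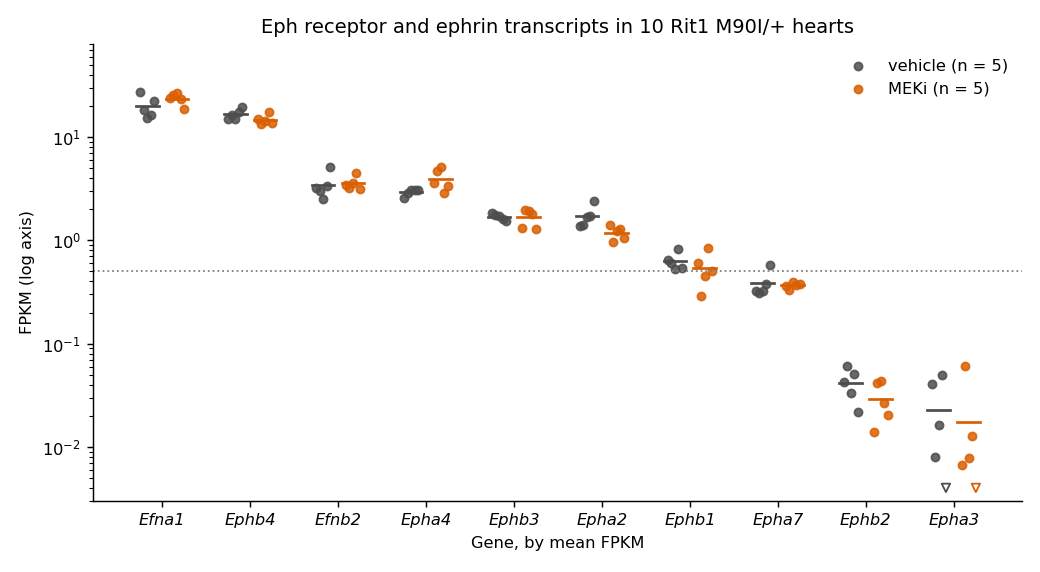
FPKM of the 10 Eph and ephrin genes in each heart, on a log axis, with genes ordered by their mean over 10 hearts. Each point is a heart, short lines are group means, open triangles mark hearts with 0 fragments and the dotted line is the 0.5 FPKM filter. The genes run from *Efna1* at 21.8 FPKM to *Epha3* at 0.0203 FPKM, and vehicle and MEKi points overlap for each gene.

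Most steps in this order were larger than the spread between hearts. Of the 9 pairs of neighbours, 7 differed when the genes were compared within hearts in an exact permutation test, two-sided, of every sign change of the log2(FPKM + 0.1) differences, with Benjamini-Hochberg adjustment over the 9 pairs. The smallest p that 10 hearts allow is 0.00195. The test measures how steadily the FPKM of neighbouring genes differed across hearts. An error in the level of a gene that is alike in every heart, as from its length, would pass it too. *Ephb4* was above *Efnb2* by 2.14 ± 0.21 on the log2 scale (SD, n = 10 hearts, higher in 10 of 10, exact permutation test, adjusted p = 0.00439). *Efna1* was above *Ephb4* by 0.45 ± 0.37 (higher in 9 of 10 hearts, exact permutation test, adjusted p = 0.0105). In the vehicle hearts alone this step was smaller, 0.23 ± 0.36 (SD, higher in 4 of 5). *Efnb2* and *Epha4* did not differ beyond their spread (difference 0.04 ± 0.43, higher in 5 of 10 hearts, exact permutation test, adjusted p = 0.768). Nor did *Ephb3* and *Epha2* (0.22 ± 0.44, exact permutation test, adjusted p = 0.169), which passed at an adjusted p of 0.0352 by the exact permutation test without vehicle heart 5. The step from *Ephb2* to *Epha3* (0.18 ± 0.21, exact permutation test, adjusted p = 0.0251) rests on at most 11 fragments a heart, and its adjusted p rose to 0.0502 at most when vehicle heart 2 or 3 or MEKi heart 3 or 5 was left out. In vehicle hearts alone *Epha2*, at 1.72 FPKM, stood just above *Ephb3*, at 1.69 FPKM.

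Between MEKi and vehicle hearts, *Epha2* had a lower and *Epha4* a higher mean, the pattern for which the genes were chosen, and none of the 10 genes had groups that were fully apart. The comparison was fitted with limma on log2(FPKM + 0.1) for the 12602 genes averaging 0.5 FPKM or more, which 7 of the 10 genes passed. *Epha7*, *Ephb2* and *Epha3* did not. Of the 7, 3 had a higher and 4 a lower mean log2 level with MEKi, and their median log2 fold change was −0.04. Over all genes tested 52.1% were higher and 47.9% lower, and the median was 0.01. None of the 7 had a limma adjusted p under 0.05, and 2 had an unadjusted p under 0.05, as many as by voom, limma's method for counts, on the recovered fragments. Over all genes tested these shares were 0.0794% and 7.62%. The first share is 10 genes, and 4 of them are the sex-linked *Xist*, *Ddx3y*, *Eif2s3y* and *Uty*, which divided the hearts as treatment did. None of the 7 had groups that did not overlap, against 1.64% of all genes tested. As this contrast chose the genes, nothing is read from these counts.

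**Figure D2:**
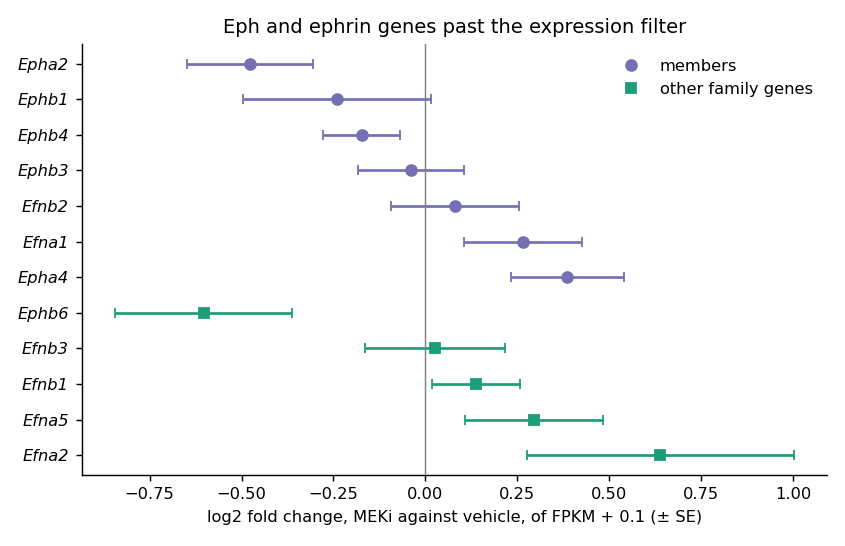
Log2 fold change of FPKM + 0.1 between MEKi and vehicle hearts (n = 5 each), with its SE as bars, for the 7 genes past the filter (circles) and 5 other family genes (squares). *Epha2*, at −0.48, and *Epha4*, at 0.39, lie at the ends of the 7 genes, and *Ephb6*, at −0.60, and *Efna2*, at 0.64, have wider bars.

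*Epha2* (chromosome 4 of GRCm38, 141301240 to 141329384, plus strand) encodes a receptor of A-type ephrins that is widely expressed in epithelia and induced by ERK signalling. In vehicle hearts 1 to 5 it was at 1.37, 1.41, 1.69, 1.71 and 2.43 FPKM, and in MEKi hearts 1 to 5 at 1.40, 0.960, 1.24, 1.30 and 1.06 FPKM. All MEKi hearts but the first were below every vehicle heart, and vehicle heart 5 was the highest of all. The means were 1.72 ± 0.423 and 1.19 ± 0.179 FPKM (SD, n = 5 per group), which is a log2 fold change of −0.48 (SE 0.17). Between 77 and 165 fragments a heart lay behind these values, so that counting alone gives a spread of about 9.20% in the vehicle group, where the measured spread was 24.6% of the mean. Of all genes tested, 4.01% were lower with MEKi by at least as much. Without vehicle hearts 4 and 5 and MEKi heart 2, which had the atrial transcripts, the log2 fold change was −0.24. These include the hearts with the highest and the lowest *Epha2*. Leaving out vehicle heart 5 alone gave −0.35, and MEKi heart 2 alone −0.41. The part of atrial tissue in this was not tested. Macrophage markers went the same way. The summed level of 7 such markers was 423.7 to 719.1 FPKM in vehicle hearts and 337.0 to 420.6 FPKM in MEKi hearts, with none at 0, and 7 of 7 had a lower mean log2 level with MEKi (median log2 fold change −0.36, 0 with an adjusted p under 0.05 by limma and 3 with an unadjusted p under 0.05, against 7.62% of all genes tested). Without vehicle heart 5 this median was −0.20. Vehicle heart 5 was the highest for *Epha2* and for this sum, but this was not particular to macrophages. Among vehicle hearts it was also highest for the summed fibroblast (349.1 FPKM), mural (233.6 FPKM) and endothelial markers (269.3 FPKM). It was lowest for the cardiomyocyte markers (15199 FPKM). Venous and atrial markers were highest in vehicle hearts 2 and 4. The part of macrophages or of any other cell type in the *Epha2* values was not tested.

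*Epha4* (chromosome 1, 77367185 to 77515088, minus strand) encodes the receptor with the broadest choice of ligands, best known for its role in axon guidance. It was at 2.55, 2.91, 3.06, 3.09 and 3.07 FPKM in vehicle hearts 1 to 5 and at 3.57, 4.71, 5.19, 2.91 and 3.35 FPKM in MEKi hearts 1 to 5. Here 4 of 5 MEKi hearts were above every vehicle heart, and MEKi heart 4 lay within the vehicle range. The means were 2.94 ± 0.225 and 3.95 ± 0.962 FPKM (SD, n = 5 per group), which is a log2 fold change of 0.39 (SE 0.15), and 5.13% of genes tested were higher by at least as much. The vehicle hearts were close together, with a spread of 7.66% of the mean against 24.4% in the MEKi group, where hearts 2 and 3 were high. Without MEKi heart 3 the log2 fold change was 0.28, and without MEKi heart 4 it was 0.48.

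Within each heart, the level of *Epha4* over that of *Epha2* lay between 1.27 and 2.06 in vehicle hearts and between 2.23 and 4.91 in MEKi hearts. This ratio joins the 2 genes that were picked for going in opposite directions, so the gap between the groups is not a separate result. The hearts with the extreme ratios were vehicle heart 5, where *Epha2* was high, and MEKi heart 2, where *Epha2* was lowest and *Epha4* was high. Both were among the hearts with atrial transcripts.

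**Figure D3:**
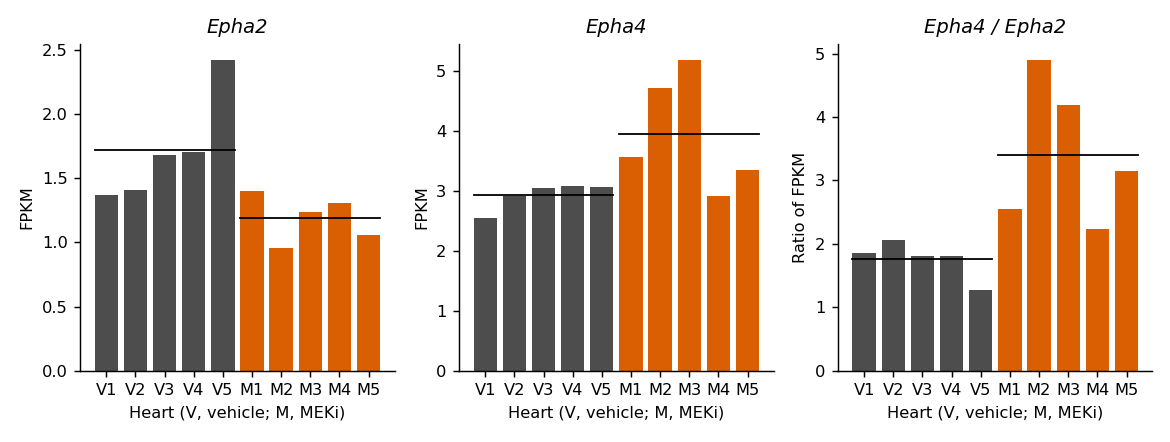
FPKM of *Epha2* and *Epha4* and their ratio in each heart (V1 to V5, vehicle, grey, and M1 to M5, MEKi, orange), with group means as black lines. *Epha2* lies below every vehicle heart in 4 of 5 MEKi hearts, *Epha4* lies above every vehicle heart in 4 of 5, and the ratio runs from 1.27 to 4.91.

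The 250 bases upstream of the start sites of this pair are shown because their transcripts went opposite ways. RefSeq promoters of GRCm38.p6 were matched for 10 of 10 genes. They were searched on both strands for CCGGAA (ETS factors), TGANTCA (AP-1), TGACGTCA (the cyclic AMP response element, CRE) and GGGCGG (the GC box), none of which contains another, and capitals mark the matches. *Epha2* is read at chr4:141300971-141301220 on the plus strand and *Epha4* at chr1:77515089-77515338 on the minus strand.
Epha2: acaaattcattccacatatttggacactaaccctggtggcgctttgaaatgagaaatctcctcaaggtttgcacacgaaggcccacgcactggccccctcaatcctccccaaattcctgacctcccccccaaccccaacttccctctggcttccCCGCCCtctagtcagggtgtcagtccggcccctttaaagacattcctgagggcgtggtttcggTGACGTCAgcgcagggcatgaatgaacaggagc
Epha4: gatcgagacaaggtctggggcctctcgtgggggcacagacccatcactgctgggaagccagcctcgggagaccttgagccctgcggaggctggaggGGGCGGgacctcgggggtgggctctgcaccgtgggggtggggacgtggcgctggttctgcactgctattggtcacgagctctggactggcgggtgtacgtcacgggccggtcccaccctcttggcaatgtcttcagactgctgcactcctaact
The *Epha2* window held a CRE 33 bases before the start and a GC box, and the *Epha4* window held a GC box. The CRE was found in 1.55% of 32851 promoter windows of this length and in 1 of the 10 genes, *Epha2*. The GC box was in 7 of the 10 genes and in 32.7% of all windows. The ETS letters were in 1 of the 10, *Ephb2*, and in 3952 of the 32851 windows, and the AP-1 letters were in 0 of the 10 and in 6.75% of all windows. GC content of the 10 windows ran from 54.0 to 72.0%, at or above the median of all windows, 52.4%. These matches describe the letters of the windows and say nothing of binding.

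The genes with the most similar pattern over the 10 hearts were looked for among 10704 genes averaging 1 FPKM or more, by the mean absolute difference between the deviations of both genes from their own mean log2 level. For *Epha2* these were *Prps2* on chromosome X (difference 0.07 on the log2 scale), *Mertk* on chromosome 2 (0.08), which encodes a receptor tyrosine kinase of phagocytes, and *Shroom4* on chromosome X (0.09), against a median of 0.32 over all genes. *Mertk* averaged 1.61 ± 0.432 FPKM in the vehicle and 1.20 ± 0.180 FPKM in the MEKi group (SD, n = 5 per group). For *Epha4* they were *Perp* (0.10), which encodes a desmosome-associated membrane protein, *Cxadr* (0.13), which encodes a junction protein of cardiomyocytes that viruses use as a receptor, and *Akap10* (0.13), an anchor for protein kinase A, against a median of 0.30. *Perp* was at 68.7 ± 5.63 and 91.6 ± 12.4 FPKM (SD, n = 5 per group). Among the Eph and ephrin genes described here that reached that level, *Ephb4* was nearest to *Epha2* (0.17, rank 85). The deviations include the difference between the groups, for which *Epha2* and *Epha4* were chosen.

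Transcripts of *Efnb2* and *Ephb4*, which encode the arterial and venous pair ephrin-B2 and EphB4, were present in all hearts. *Ephb4* (chromosome 5, 137350109 to 137378669, plus strand) was at 15.1, 16.3, 14.9, 17.5 and 19.6 FPKM in vehicle hearts 1 to 5 and at 15.0, 13.5, 14.3, 17.4 and 13.6 FPKM in MEKi hearts 1 to 5. Here 3 MEKi hearts were below every vehicle heart and the others lay within the vehicle range. The means were 16.7 ± 1.94 and 14.8 ± 1.60 FPKM (SD, n = 5 per group), with a log2 fold change of −0.17 (SE 0.10), which was −0.04 without the hearts with atrial transcripts. *Ephb4* had the most fragments of the 10 genes, from 976 to 1444 a heart. It overlaps *Zan* on the opposite strand, which averaged 0.00118 FPKM.

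*Efnb2* (chromosome 8, 8617434 to 8661242, minus strand) was at 3.20, 3.04, 2.50, 3.38 and 5.18 FPKM in vehicle hearts 1 to 5 and at 3.46, 3.20, 3.64, 4.48 and 3.17 FPKM in MEKi hearts 1 to 5. All MEKi hearts lay within the vehicle range. The means were 3.46 ± 1.02 and 3.59 ± 0.535 FPKM (SD, n = 5 per group), with a log2 fold change of 0.08 (SE 0.17). Without the hearts with atrial transcripts it was 0.32, and without vehicle heart 3 it was −0.02. The level of *Ephb4* over *Efnb2* lay between 3.79 and 5.94 in vehicle hearts and between 3.89 and 4.35 in MEKi hearts.

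Among vehicle hearts, the order of these genes followed that of endothelial transcripts at both ends. The summed level of 10 endothelial markers was highest in vehicle heart 5 (269.3 FPKM) and lowest in vehicle heart 3 (160.5 FPKM), and *Ephb4* and *Efnb2* were also highest and lowest there. This was not particular to endothelium. The macrophage sum (719.1 and 423.7 FPKM) and the arterial sum (47.1 and 28.3 FPKM) had the same highest and lowest vehicle hearts. Fibroblast and mural sums shared only the highest, and the venous sum only the lowest. Vehicle heart 3 also had the largest mitochondrial share, 35.0%. In the MEKi group the endothelial sum lay between 207.3 and 215.9 FPKM in hearts 1 to 4 and was 167.4 FPKM in heart 5, where *Efnb2* was lowest and *Ephb4* second lowest. MEKi heart 4 was highest for both genes, with a sum within this narrow range. Of the 10 endothelial markers, 2 had a higher and 8 a lower mean log2 level with MEKi (median log2 fold change −0.11), none had a limma adjusted p under 0.05 and none an unadjusted p under 0.05. This median was −0.23 without vehicle heart 3, −0.046 without vehicle heart 5, −0.042 without MEKi heart 5 and 0.027 without the hearts with atrial transcripts. For 8 arterial markers the split was 5 higher and 3 lower (median 0.03), and for the 5 of 6 venous markers past the filter 3 higher and 2 lower (median 0.03). None of these had a limma adjusted p under 0.05, and 1, the arterial Notch target *Hey1*, had an unadjusted p under 0.05 (log2 fold change −0.74, limma adjusted p = 0.254). Over all genes tested 0.0794% had an adjusted and 7.62% an unadjusted p under 0.05 by limma, and 52.1% were higher with MEKi. What share of the *Ephb4* and *Efnb2* values the amount of endothelium accounts for was not tested.

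**Figure D4:**
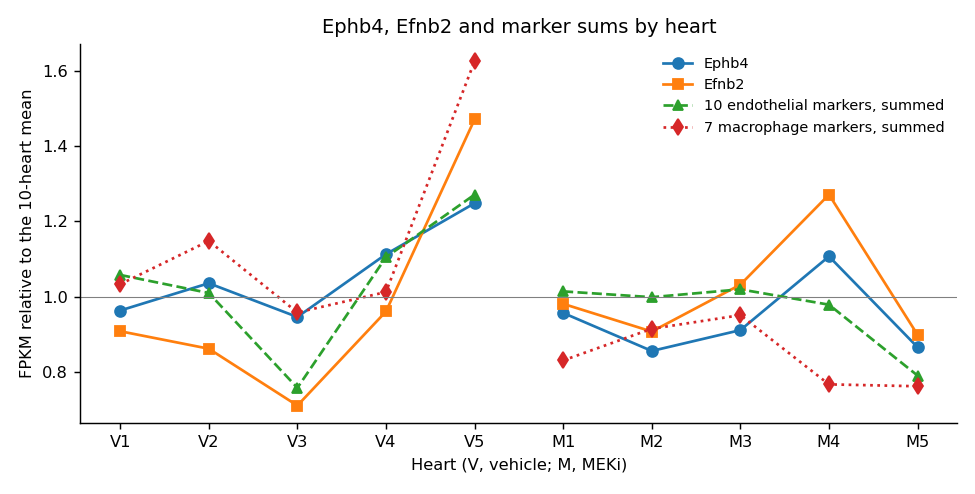
FPKM of *Ephb4*, *Efnb2* and the summed endothelial and macrophage markers in each heart, relative to the mean of each over 10 hearts. Lines join hearts of a group for reading only. Vehicle heart 5 is the highest for all 4 measures (5.18 FPKM of *Efnb2*), and vehicle heart 3 is lowest in its group for all 4.

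*Efna1* (chromosome 3, 89271733 to 89281142, minus strand), the main ligand of EphA2 in many tissues, was at 27.1, 18.4, 15.2, 16.4 and 22.6 FPKM in vehicle hearts 1 to 5. In MEKi hearts 1 to 5 it was at 24.0, 25.6, 26.8, 23.2 and 18.6 FPKM. All MEKi hearts lay within the vehicle range, which vehicle heart 1 set at the top and vehicle heart 3 at the bottom. The means were 20.0 ± 4.89 and 23.6 ± 3.16 FPKM (SD, n = 5 per group), with a log2 fold change of 0.27 (SE 0.16), between 0.18 without vehicle heart 3 and 0.38 without vehicle heart 1. *Efna1* exceeded its receptor *Epha2* between 9.03 and 26.7 times in a heart.

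*Ephb3* (chromosome 16, 21204755 to 21223305, plus strand) and *Ephb1* (chromosome 9, 101922128 to 102354693, minus strand), both receptors of B-type ephrins, had small differences against their spread. *Ephb3* ranged from 1.54 to 1.83 FPKM in vehicle hearts and from 1.29 to 1.97 FPKM in MEKi hearts (log2 fold change −0.04, SE 0.15, and 0.034 without MEKi heart 1 or 0.041 without MEKi heart 5). In the vehicle group its spread, 6.83% of the mean, was below the 7.75% that counting alone gives, while MEKi hearts 1 and 5 were below the vehicle range, hearts 2 and 3 above it and heart 4 within it. *Ephb1* ranged from 0.532 to 0.821 FPKM with vehicle and from 0.291 to 0.846 FPKM with MEKi (log2 fold change −0.24, SE 0.26), with 35 to 106 fragments a heart. It was lowest in MEKi heart 2, and its log2 fold change was −0.08 without that heart.

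The 3 genes under the filter gave low and overlapping values. *Epha7* (chromosome 4, 28813131 to 28967499, plus strand), a receptor of A-type ephrins best studied in the nervous system, averaged 0.383 ± 0.115 FPKM in the vehicle and 0.366 ± 0.0236 FPKM in the MEKi group (SD, n = 5 per group), and it overlaps the antisense gene *Gm11915*, which averaged 0.843 FPKM. Counting by strand is not stated, so reads of this pair may be mixed. *Ephb2* (chromosome 4, 136647539 to 136835988, minus strand), a receptor of B-type ephrins, had between 3 and 11 fragments a heart and ranged from 0.0139 to 0.0605 FPKM. *Epha3* (chromosome 16, 63543534 to 63864175, minus strand), a receptor of A-type ephrins with a role in heart valve formation, had 0 fragments in vehicle heart 5 and MEKi heart 5, which allows up to 0.0237 and 0.0220 FPKM there taking 3 fragments as the limit for counting error, and at most 9 fragments elsewhere. A difference between groups was not detectable at this depth for *Ephb2* or *Epha3*.

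The other 12 genes of the family, which the choice left out, included abundant ephrins. *Efnb3*, a B-type ephrin, averaged 13.9 ± 2.42 FPKM in the vehicle and 14.4 ± 3.55 FPKM in the MEKi group (SD, n = 5 per group). *Efnb1*, the X-linked B-type ephrin, was at 5.47 ± 0.682 and 6.04 ± 0.815 FPKM, and *Efna5*, an A-type ephrin, at 1.24 ± 0.314 and 1.52 ± 0.260 FPKM. Of these 12 genes, 5 passed the filter, 4 with a higher and 1 with a lower mean log2 level. None had a limma adjusted p under 0.05, and 1, *Ephb6*, had an unadjusted p under 0.05, by voom also 1. Over all genes tested these shares were 0.0794% and 7.62% by limma. *Ephb6*, a receptor without kinase activity, was at 0.583, 0.919, 0.466, 0.780 and 0.637 FPKM in vehicle hearts 1 to 5 and at 0.387, 0.309, 0.325, 0.519 and 0.506 FPKM in MEKi hearts 1 to 5. Here 3 MEKi hearts were below every vehicle heart, and at 18 to 50 fragments a heart the log2 fold change of −0.60 (SE 0.24) did not pass (limma adjusted p = 0.585). *Efna2*, an A-type ephrin, went from 0.492 ± 0.365 to 0.732 ± 0.201 FPKM (difference on the log2 scale 0.64, SE 0.36, adjusted p = 0.715 by limma), and vehicle heart 4, at 1.11 FPKM, was above all others. For *Efna5* the log2 fold change was 0.30 (SE 0.19, adjusted p = 0.756 by limma), and it was 0.17 without vehicle heart 5 and 0.17 without the hearts with atrial transcripts. The log2 fold change was 0.14 for *Efnb1* (SE 0.12, adjusted p = 0.820 by limma) and 0.03 for *Efnb3* (SE 0.19, adjusted p = 0.980 by limma). *Epha1*, *Epha5*, *Epha6*, *Epha8*, *Epha10*, *Efna3* and *Efna4* reached no more than 18 fragments per heart, and *Epha10* was listed at 0 in every heart.

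Genes for proteins that act at Eph receptors and ephrins inside the cell were split between both directions. Of 40 adaptors, kinases, phosphatases, proteases and regulators of small GTPases, 35 passed the filter, 20 with a higher and 15 with a lower mean log2 level with MEKi. Their median log2 fold change was 0.03, against 0.01 over all genes tested, and −0.010 without MEKi heart 5. None had a limma adjusted p under 0.05, and 2 had an unadjusted p under 0.05, with 0 and 1 by voom. Over all genes tested these shares were 0.0794% and 7.62% by limma, and 52.1% of genes were higher with MEKi. *Chn1*, which encodes the Rac inhibitor α-chimaerin that acts below EphA4, was at 3.39 ± 0.290 and 2.85 ± 0.202 FPKM (SD, n = 5 per group), with a log2 fold change that did not pass (−0.24, SE 0.10, adjusted p = 0.591 by limma). Among partners averaging 1 FPKM or more this was the lowest value. The highest values among these were those of the adaptor *Grb2* (0.20, SE 0.09, adjusted p = 0.649 by limma) and the Ras GTPase-activating protein *Rasa1* (0.20, SE 0.09, adjusted p = 0.653 by limma).

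*Epha2* and *Epha4* also belong to a list of 10 transcripts used to read MAPK output. Their opposite signs chose them, so the list is described without them. Of the other 8, 6 passed the filter, and the mean log2 level of 6 of 6 was lower in the MEKi group. Their median log2 fold change was −0.37. The log2 fold changes were −0.82 for *Spry4*, −0.39 for *Ccnd1*, −0.37 for both *Dusp6* and *Phlda1*, −0.22 for *Spry2* and −0.21 for *Etv5*. None of the 6 had a limma adjusted p under 0.05, and 3 had an unadjusted p under 0.05, against 7.62% of all genes tested. *Spry4* alone passed without vehicle heart 1 (limma adjusted p = 0.0429), and without the hearts with atrial transcripts the median was −0.16.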

How the data were processed

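The authors deposited FPKM for each heart, scaled to gene length and to a per-heart library size, with gene coordinates. The submitters' processing notes name fastp, STAR 2.5, HTSeq 0.6.1 and build mm10. The annotation release, strand setting and FPKM program are not given in the sources used here. Coordinates equal those of GENCODE M21 (GRCm38) for all 10 genes. The product of FPKM and length came out as multiples (whole within 0.01) of 1 step per heart, which gave the fragments behind each value. Counting limits cover counting error only. No 2 hearts agreed within sampling noise.

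Groups were taken from the labels. limma 3.58.1 in R 4.3.3 (lmFit, eBayes with trend) was run on log2(FPKM + 0.1) for genes averaging 0.5 FPKM or more, two-sided, with Benjamini-Hochberg adjustment over all genes and a threshold of 0.05, and it was tested on simulated data. Fold changes on this scale understate those of low genes. Summaries used Python 3.11.15, numpy 2.4.6, pandas 2.3.3 and scipy 1.17.1. The genes, lists and most alternatives were chosen with earlier results of these data known. Named genes are the 10 genes, the rest of the family, the largest partner changes among genes averaging 1 FPKM or more, the MAPK list and the 3 closest patterns. One partner that this rule names is not reported here. The labels call the hearts biological replicates. Protein sequences were not used here.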

Additional observations from a re-analysis of the deposited data

Results flagged for a closer look

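In groups of 5 hearts, a heart far from the other 4 was found in 2 of the 20 groups formed by the 10 genes, where chance gives about 1. *Epha7* was at 0.584 FPKM in vehicle heart 5, where the remaining 4 were between 0.309 and 0.378 FPKM. This was also the heart with the highest *Epha2*, *Ephb4* and *Efnb2* in its group. *Epha3* was at 0.0603 FPKM in MEKi heart 2, against at most 0.0129 FPKM in the other MEKi hearts, and this value rests on 9 fragments.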

How the results depend on the processing

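None of the other family genes or partners that passed the filter of each alternative had an adjusted p under 0.05 there. The alternatives were other pseudocounts, filters and scalings, voom, array weights, the replicate block and leaving out hearts. Over 19 alternatives the log2 fold change ranged from −0.55 to −0.24 for *Epha2* and from 0.28 to 0.48 for *Epha4*, which were chosen for these signs. The lists of MAPK targets and markers had 0 genes past the threshold and 1, *Spry4*, without vehicle replicate 1 (range over hearts left out, 0 to 1). *Ephb3* had the opposite sign in 3 of 19 alternatives (TPM scaling 0.034, without MEKi replicate 1 0.034 and without MEKi replicate 5 0.041), and *Efnb2* without vehicle replicate 3 (−0.022) and MEKi replicate 4 (−0.00076). *Efnb3* had the opposite sign without the hearts with atrial transcripts (−0.17), and without vehicle replicate 5 (−0.070) or MEKi replicate 2 (−0.020), 3 (−0.025) or 4 (−0.059), against 0.20 at most with a heart left out. In the level order, 7 of 9 steps passed, and from 6 to 8 with each heart left out. In vehicle hearts alone 0 could pass, since the smallest p that 5 hearts allow is 0.0625. Some steps did not reach that p either, among them *Efna1* over *Ephb4* (exact permutation test, unadjusted p = 0.1875). Replicate numbers were shared between groups, but same-numbered hearts did not vary together (correlations −0.15 to −0.02, with 0 of 5 over 0.1). With the replicate block the count over all genes went from 10 to 4. The block leaves log2 fold changes as they are by construction, −0.48 for *Epha2*, since each number has 1 heart per group. A scaling to TPM moved the median of all genes from 0.01 to 0.09. *Ephb2* and *Epha3*, with at most 11 fragments a heart, are limited by depth.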
